A study of Mus musculus with 4 samples.

Results

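The genes described here encode the machinery through which leukemia inhibitory factor (LIF) reaches the nucleus of mouse embryonic stem (ES) cells. They are the receptor subunits Lifr, Il6st and Osmr, the kinases Jak1, Jak2 and Tyk2, the transcription factors Stat3, Stat5a and Stat5b, and the STAT inhibitor Pias3. They were chosen by name, and every probe set whose platform annotation gave exactly 1 gene symbol, and that symbol one of the 10, was taken. This gave 27 of the 34945 probe sets with 1 symbol, and 10 of 18193 genes, each of the 10 with at least 2 probe sets. The cells were CGR8, an established ES cell line, and RNA was hybridised to 4 Affymetrix mouse arrays. All cells grew on gelatin in a medium with knock-out serum replacement. On 2 arrays the cells had LIF at 1000 U/ml, and on the other 2 the medium was replaced by one without LIF, with RNA taken after 2 days. The arrays of each group are numbered 1 and 2 in the labels. A single cell line was used. Whether replicate arrays stem from separate cultures is not said in the labels, so a p-value here reflects array-to-array spread that may be technical in origin.

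LIF binds the receptor subunit Lifr, which then pairs with gp130, the product of Il6st and the subunit shared by the receptors of the interleukin-6 family. JAK kinases bound to the cytoplasmic tails of the receptors phosphorylate them, Stat3 docks there, is phosphorylated in turn, forms dimers and activates genes in the nucleus. One of these genes, Socs3, encodes a feedback inhibitor of the same kinases, and Stat3 activity supports self-renewal of mouse ES cells. Phosphorylation sets the activity of these proteins, and the arrays measured only their transcripts.

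Signals are the deposited MAS5 values, on a linear scale. Testing was limited to probe sets and genes with a mean log2 signal over the 30th percentile, equal to a signal of 22.9. Pou5f1, which encodes Oct4 and marks ES cells, read 7211.7 to 10631.6 over the 4 arrays with overlapping groups, and all 10 ES cell markers examined were above the filter. Most of the other ES cell markers read lower without LIF, and the summed signal of the 10 was 116877 and 136297 with LIF, against 71622 and 98182 without LIF. Of the 10, 7 were lower with no overlap (15.2% of all tested genes). The marker Lin28a was higher with no overlap (27.3%), at 3233.3 and 2873.4 with LIF against 5179 and 6025.6 without it. In limma 1 of the 10 passed (0.145%), the transcription factor Esrrb, with a log2 change of -2.27 (adjusted p = 0.031). Socs3 read 4826.6 and 6197.5 with LIF against 360 and 261.4 without it. Between the arrays numbered 1 and 2 the markers of primitive endoderm differed, in both groups. Summed over 11 genes they gave 2689.9 (array 1) and 6760 (array 2) with LIF, and 3498 (array 1) and 15063 (array 2) without LIF. Actb signals from 3' probes over those from 5' probes gave 1.32 (with LIF) and 1.44 (without LIF) for number 1, against 1.83 and 1.77 for number 2. Summed signals of 9 fibroblast genes were 691.6 and 396.5 with LIF against 980.6 and 539.4 without it, and those of 4 blood cell genes were 235.4 and 254.5 with LIF against 354.5 and 378.3 without it. Summed signals of 7 neuroectoderm genes were 2265 and 1412.5 with LIF against 3227.8 and 1618.6 without it, again lower for number 2 in both groups. Of the 6 tested neuroectoderm genes 2, Sox1 and Map2, were higher with no overlap (27.3% of all tested genes) and 1, Tubb3, was lower (15.2%). Summed signals of 6 primitive streak genes (444.9 to 671.5) and 6 trophoblast genes (581.1 to 1454.5) were higher on both arrays without LIF. Both sums include Eomes, at 161.1 and 166.8 with LIF against 264 and 359.9 without it. Of the 6 tested primitive streak genes 2 were higher with no overlap (27.3% of all tested genes) and 1, Hand1, was lower. Of the 4 tested trophoblast genes 2 were higher with no overlap, Eomes and Krt8, and 0 were lower. Lum, Fap, Cdx2, Elf5, Ptprc and Neurog2 were among the markers of other cell types below the filter. The part of these markers and of RNA integrity in the values that follow was not tested, and changes within the arrays of one number are given for the genes that the results turn on.

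Without LIF the transcripts of Lifr and Stat3 read 3.25-fold and 2.88-fold below their level with LIF, those of Pias3 and Jak2 read 2.06-fold and 1.56-fold higher, and those of Il6st and Jak1 had log2 changes of -0.11 and 0.16. None of these differences passed the test over all genes. By the limma test 0 of the 10 genes passed at an adjusted p of 0.05, and 0.145% of all 14445 tested genes did. An unadjusted p of 0.05 or less was reached by 3 of the 10, Lifr and Stat3 on the low side and Pias3 on the high side, and by 10.9% of all tested genes. The 2 arrays without LIF lay beyond the 2 with LIF for 6 of the 10, beside 42.5% of all tested genes. Of the 6, Lifr, Stat3 and Stat5a were lower without LIF, beside 15.2% of all tested genes that were lower with no overlap. Jak2, Tyk2 and Pias3 were higher, beside 27.3% that were higher with no overlap. A difference of at least 2-fold with no overlap was seen for Lifr and Stat3 on the low side (2.12% of all tested genes) and for Pias3 on the high side (7.36%). The median log2 change, without LIF minus with LIF, was 0.02 over the 10 genes and 0.09 over all tested genes. With every array set to a common median the median change of all tested genes was -0.20, so small changes depend on the scaling. Single probe sets were also tested, each as its own feature. Of the 25 above the filter, 0 passed, as did 0% of all 31526 tested, while 5 had an unadjusted p of 0.05 or less (6.83% of all). The groups did not overlap for 13 of these 25, beside 37.2% of all tested probe sets (13.1% lower and 24.1% higher without LIF). Both the 5 and the 13 include a dim Stat3 probe set that read 12.3 and 15.1 without LIF, below the filter. It was tested only because of its signal with LIF, so it adds no support to these counts.

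**Figure D1:**
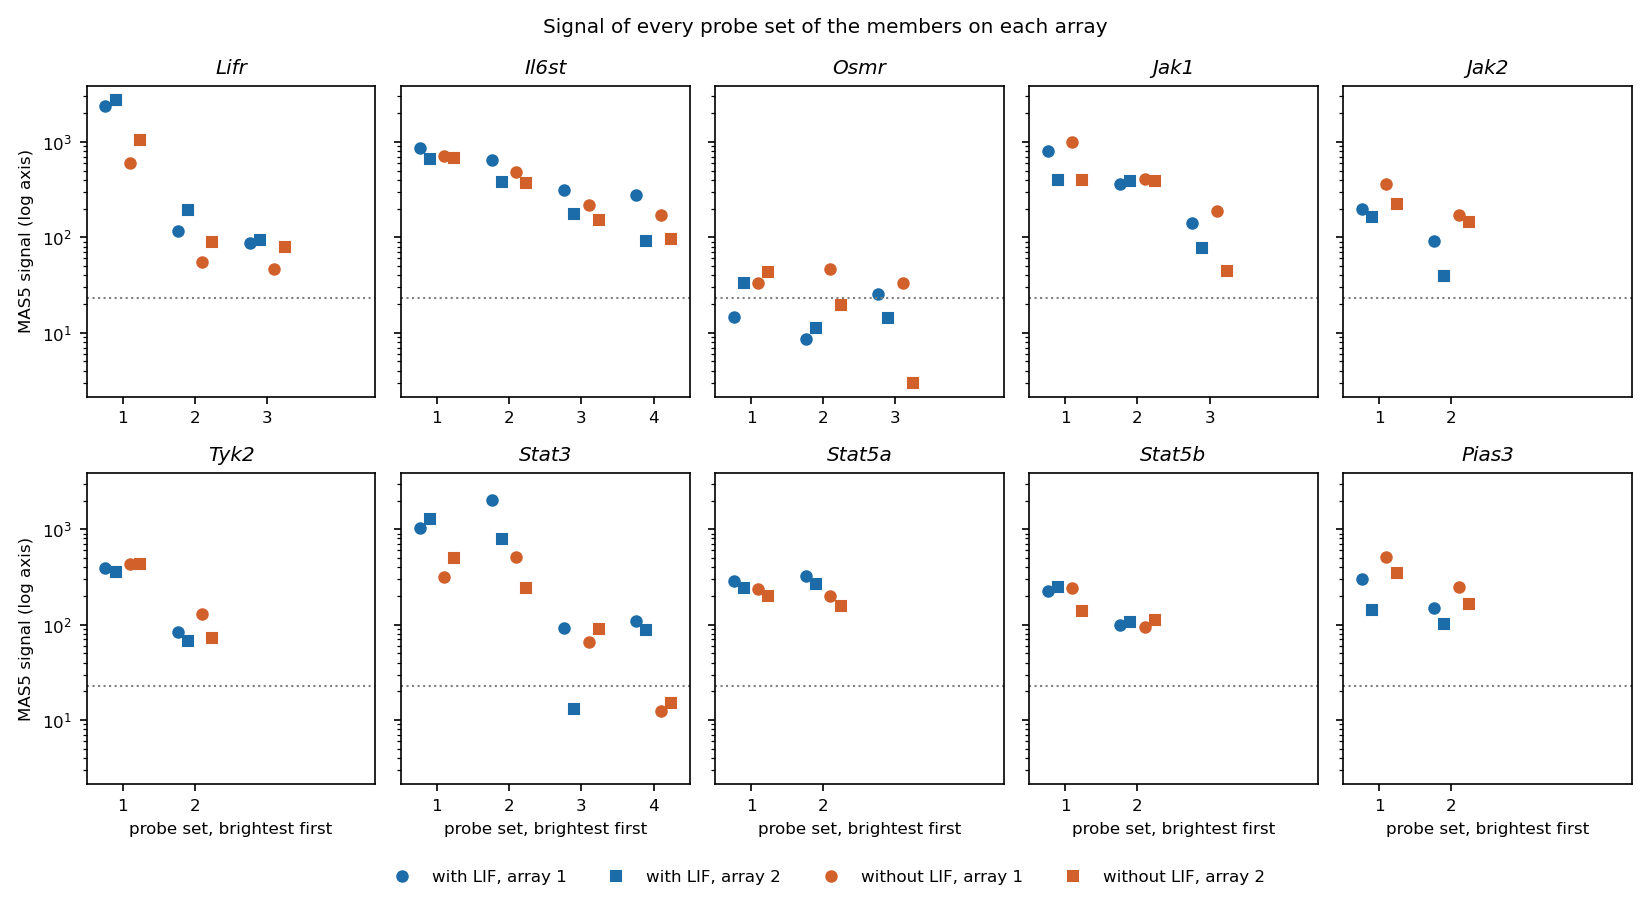
MAS5 signal on a log axis for each of the 27 probe sets of the 10 genes, brightest first within a gene; blue is with LIF, orange without LIF, circles are arrays numbered 1 and squares arrays numbered 2, and the dotted line is the filter at 22.9. The brightest Lifr and Stat3 probe sets lie lower on both arrays without LIF, while the Osmr probe sets lie around the filter.

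Lifr, the subunit that binds LIF itself, gave the largest difference among the receptors. Its brightest probe set read 2407.5 and 2741 on arrays 1 and 2 with LIF, and 601.3 and 1039.4 on arrays 1 and 2 without LIF. Both arrays without LIF lay far below both with LIF. The RNA came from whole cultures, so fewer cells with a transcript and less transcript per cell cannot be told apart. The means were 2574 ± 236 and 820.4 ± 310 (SD, n = 2), giving a log2 change of -1.70 (3.25-fold lower; SE 0.28; 95% confidence interval -2.37 to -1.03). The adjusted p over all genes in limma was 0.082, so Lifr did not pass. The change was -2.00 between the arrays numbered 1 and -1.40 between those numbered 2. Omitting array 1 without LIF gave a log2 change of -1.31, and omitting array 2 of that group gave -2.09. Omitting array 1 or array 2 with LIF gave -1.79 and -1.61. The 2 dimmer probe sets of Lifr also read lower on both arrays without LIF. One read 117.1 and 194.9 with LIF against 55.4 and 88.7 without it, with a log2 change of -1.11 (SE 0.49, from the fit over probe sets). The other read 87.9 and 93.3 with LIF against 46.7 and 79.3 without it, a log2 change of -0.57 (SE 0.50).

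The RefSeq table of promoters, on assembly GRCm38.p6, lists a pair of start sites for Lifr, and the 250 bases before each are shown because their base composition differs. They lie at chr15:7129322-7129571 and chr15:7140292-7140541 on the + strand, and capitals mark each CG dinucleotide.
Lifr, upstream start: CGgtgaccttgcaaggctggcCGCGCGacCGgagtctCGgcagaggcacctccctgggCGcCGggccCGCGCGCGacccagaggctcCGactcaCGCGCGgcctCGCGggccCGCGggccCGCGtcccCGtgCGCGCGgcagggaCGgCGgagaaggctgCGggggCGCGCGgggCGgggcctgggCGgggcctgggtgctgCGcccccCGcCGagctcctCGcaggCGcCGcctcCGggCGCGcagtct
Lifr, downstream start: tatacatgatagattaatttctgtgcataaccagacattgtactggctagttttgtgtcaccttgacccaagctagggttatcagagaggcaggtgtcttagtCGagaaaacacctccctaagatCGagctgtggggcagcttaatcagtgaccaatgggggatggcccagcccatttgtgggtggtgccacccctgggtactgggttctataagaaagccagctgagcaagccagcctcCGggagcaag
The upstream window holds 43 CG dinucleotides and 82.4% G and C, and the downstream window holds 3 and 50.8%, beside medians of 6 and 52.4% over all 32851 windows in the table. No probe set was assigned to either start here.

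Il6st, the gp130 subunit, differed little between the groups. Its brightest probe set read 866.6 and 663.2 with LIF against 717.8 and 683.6 without it, so the values without LIF lay inside the range of those with LIF. Its log2 change was -0.11 (SE 0.23, 95% confidence interval -0.65 to 0.42, adjusted p = 0.90 in limma). The other 3 probe sets of Il6st had log2 changes of -0.21, -0.36 and -0.31, and in each the groups overlapped. The sign of the brightest one was reversed when array 1 with LIF was left out (0.08). One of the 3 has an identifier ending in _s_at, a class of probe set that can match more than 1 gene.

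Osmr, the receptor subunit for oncostatin M, read near the filter. Its brightest probe set read 14.6 and 33.6 with LIF against 33.1 and 43.4 without it, around the filter of 22.9. Its log2 change of 0.78 had a standard error nearly as large, 0.76 (adjusted p = 0.78 in limma). Omitting array 1 with LIF gave 0.17, and omitting array 2 of that group gave 1.38. The other 2 probe sets lay below the filter and were not tested. They disagreed, reading 8.7 and 11.3 with LIF against 46.9 and 19.4 without it in one, and 25.4 and 14.4 with LIF against 33 and 3 without it in the other.

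The JAK kinases, which sit on the receptor tails, gave no difference of the size seen for Lifr in their brightest probe sets. Jak1, the main kinase of gp130, read 802.9 and 403.6 with LIF against 1004.2 and 401.2 without it. The order followed the array number, and both arrays numbered 1 lay above both numbered 2. Jak1 gave 0.16 on the log2 scale (SE 0.49; adjusted p = 0.94 in limma) and -0.14 with a common median per array. The next probe set of Jak1 showed no such split, at 365.5 and 387.9 with LIF against 405.1 and 386.3 without it. The dimmest read 140.5 and 77.9 with LIF against 188.8 and 44.5 without it, again split by number.

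Jak2 read higher without LIF in both of its probe sets. The brighter one read 198.6 and 164.8 with LIF against 360.9 and 221.5 without it, and the groups did not overlap. This is a log2 change of 0.64 (1.56-fold higher; SE 0.34; adjusted p = 0.56 in limma), at 0.86 for number 1 and 0.43 for number 2. Omitting array 1 without LIF gave 0.29, and omitting array 2 of that group gave 0.996. The dimmer one read 92.3 and 38.9 with LIF against 170 and 145.7 without it, a log2 change of 1.39 (SE 0.55, unadjusted p = 0.046 and adjusted p = 0.72 in limma over probe sets). Tyk2 read 388.7 and 354.8 with LIF against 436.8 and 429.8 without it in its brighter probe set. These groups did not overlap, but the log2 change was small, at 0.22 (SE 0.23, adjusted p = 0.79 in limma), and -0.07 with a common median per array. Its dimmer probe set read 84.2 and 67.2 with LIF against 128.5 and 72 without it, and the groups overlapped.

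**Figure D2:**
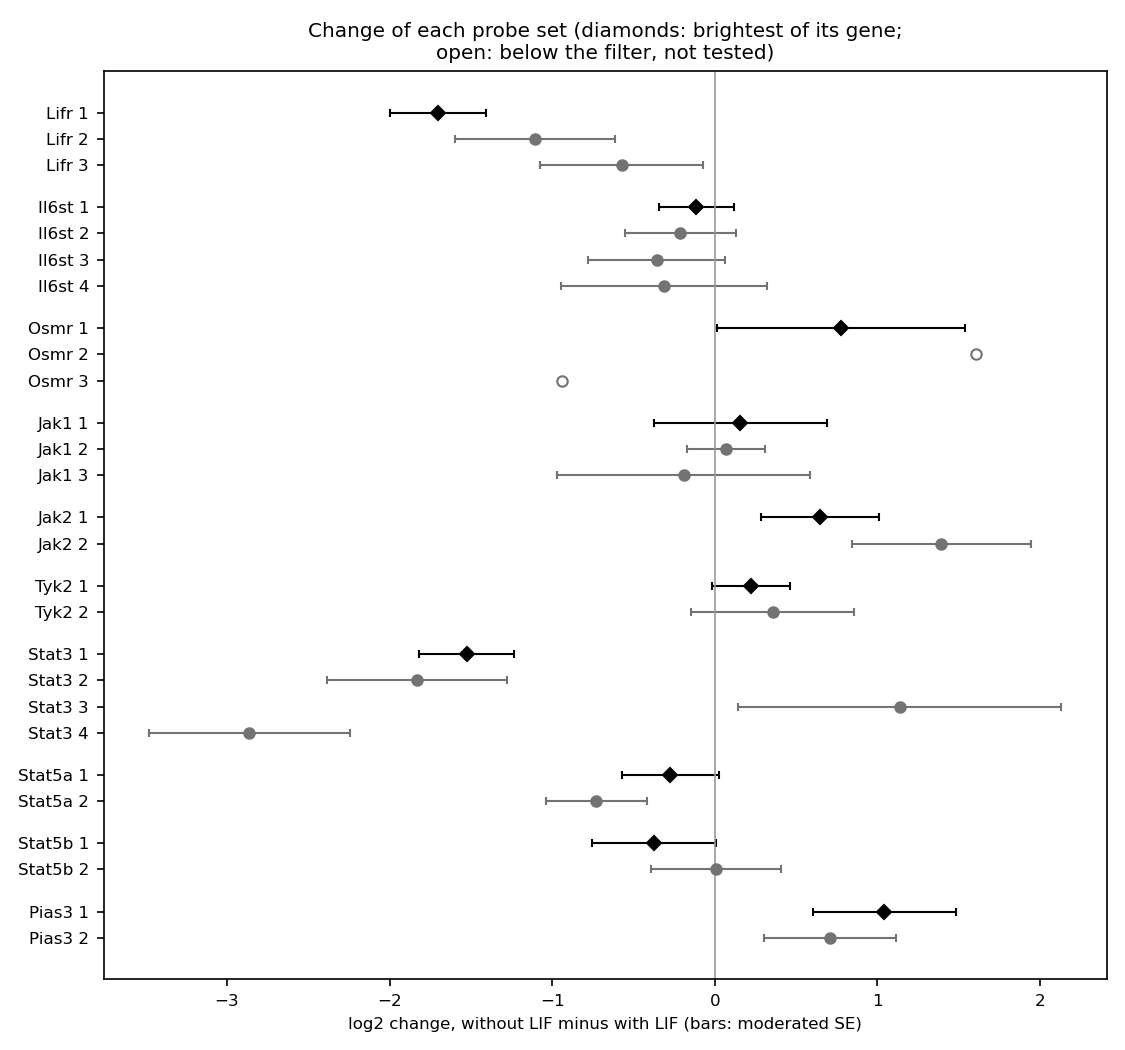
Log2 change, without LIF minus with LIF, of all 27 probe sets from the fit over probe sets, with moderated SE as bars; diamonds are the brightest probe set of each gene, circles the others, and open circles the 2 Osmr probe sets below the filter. All 3 Lifr probe sets lie left of 0, and 1 of the 4 Stat3 probe sets lies to the right.

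Stat3, the transcription factor that carries the LIF signal in ES cells, read lower without LIF in its 2 bright probe sets. The brightest read 1035.2 and 1267.4 with LIF against 317.5 and 498.5 without it. The groups lay well apart, with means of 1151 ± 164 and 408.0 ± 128 (SD, n = 2). The log2 change was -1.53 (2.88-fold lower; SE 0.28; 95% confidence interval -2.19 to -0.86; adjusted p = 0.0999 in limma), and it was -1.71 and -1.35 within the arrays numbered 1 and 2. The log2 change of Stat3 was -1.20 and -1.85 when array 1 or array 2 without LIF was left out. It was -1.67 and -1.38 when array 1 or array 2 with LIF was left out.

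The other Stat3 probe sets differed among themselves. The second read 2014.3 and 786.4 with LIF against 514.4 and 243 without it, with the array numbered 2 the lower in each group and no overlap between groups. Its log2 change was -1.83 (SE 0.55). Another read 110.5 and 88.8 with LIF against 12.3 and 15.1 without it, both of the latter below the filter, so its log2 change of -2.86 (SE 0.62) has an uncertain size. The last one read 92.6 and 13.1 with LIF against 65.2 and 89.8 without it, which gives 1.14 on the log2 scale (SE 0.995), and array 1 with LIF lay above both arrays without LIF. These 3 values come from the fit over probe sets. The 250 bases before the RefSeq start of Stat3, at chr11:100939541-100939790 on the - strand, are shown for comparison with Lifr, with CG dinucleotides in capitals.
Stat3: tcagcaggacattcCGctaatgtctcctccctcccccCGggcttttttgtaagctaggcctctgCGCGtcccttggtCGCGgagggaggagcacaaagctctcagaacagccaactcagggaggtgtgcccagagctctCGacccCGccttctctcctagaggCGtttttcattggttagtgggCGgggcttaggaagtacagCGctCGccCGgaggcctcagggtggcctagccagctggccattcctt
This window holds 13 CG dinucleotides and 60.8% G and C. The core motif of STAT binding, TTCNNNGAA, which reads the same on both strands, was searched in the 14 windows of the 10 genes and matched 0 of them, beside 7.02% of all windows in the table. In Socs3 it matched once, with its first base 154 bases before the start, on the - strand of chr11:117969503-117969529, shown with the match in capitals.
Socs3: aaaccagccTTCTTAGAAgggaggggg
A match is a description of letters, and its absence here says only that these letters are not in these 250 bases.

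Stat5a and Stat5b, close relatives of each other that serve other cytokine receptors, had log2 changes nearer 0 than Stat3. Their sequences are closely related, and cross-hybridisation between their probes was not tested. Stat5a read 288.3 and 241.7 with LIF against 239.2 and 199.6 without it in its brightest probe set, with the groups apart by a narrow margin. The log2 change was -0.27 (SE 0.29, 95% confidence interval -0.95 to 0.41, adjusted p = 0.79 in limma). Its second probe set read 323.5 and 268.7 with LIF against 200.1 and 158.2 without it, a log2 change of -0.73 (SE 0.31, unadjusted p = 0.061 in limma over probe sets). Stat5b read 226.8 and 248.3 with LIF against 242 and 138.2 without it, so only array 2 without LIF lay low. Its log2 change was -0.38 (SE 0.36, adjusted p = 0.77 in limma), and 0.03 when that array was left out. The dimmer Stat5b probe set had a log2 change of 0.01 (SE 0.40).

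Pias3, which encodes a protein that binds activated Stat3 and hinders its binding to DNA, read higher without LIF in both of its probe sets. The brighter one read 298 and 142.8 with LIF against 514.9 and 350.6 without it. Both arrays without LIF lay above both with LIF, and in each group the array numbered 2 was the lower. Its log2 change was 1.04 (2.06-fold higher; SE 0.41; unadjusted p = 0.038 and adjusted p = 0.42 in limma), at 0.79 for number 1 and 1.30 for number 2. Omitting array 1 with LIF gave 1.57, and omitting array 2 of that group gave 0.51. The dimmer probe set read 148.7 and 101.4 with LIF against 246.6 and 163.1 without it, a log2 change of 0.71 (SE 0.41).

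**Figure D3:**
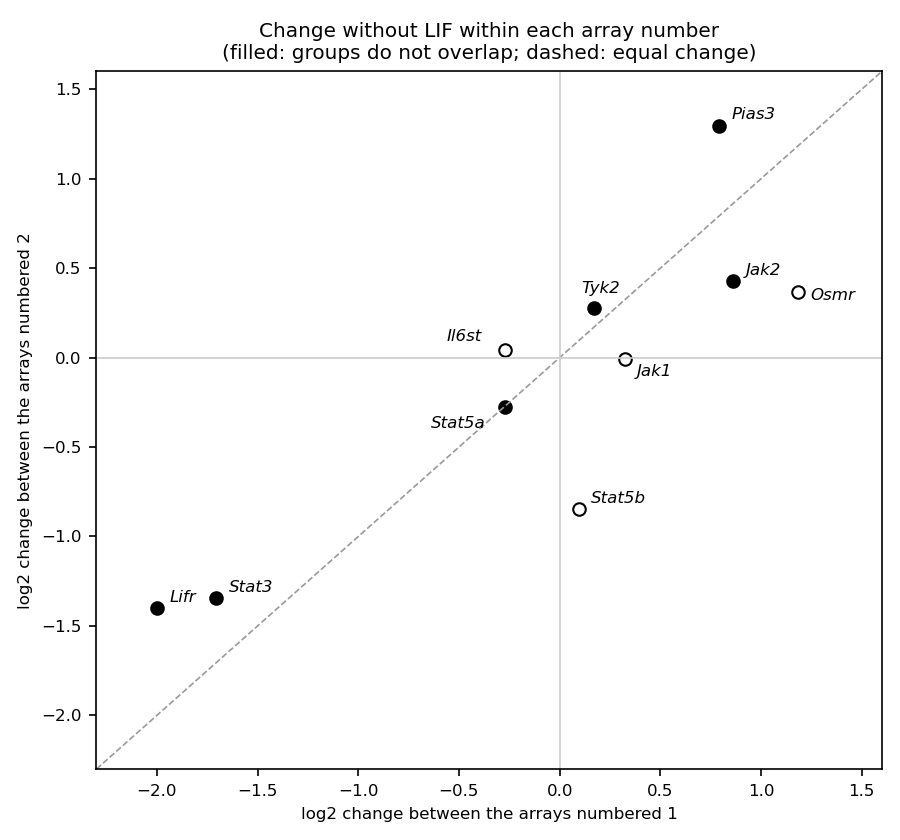
Log2 change of the brightest probe set of each gene between the arrays numbered 1 (horizontal) and between those numbered 2 (vertical); filled points are genes whose groups do not overlap, and the dashed line marks equal change. Lifr and Stat3 lie at about -1.3 to -2.0 on both axes, and Pias3 and Jak2 lie above 0 on both.

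The array number moved with many of these signals and with those of the whole array. The median signal of all probe sets other than controls was 69.9 (array 1) and 59.6 (array 2) with LIF. Without LIF it was 95.5 (array 1) and 65.5 (array 2), so a lower reading on number 2 is not particular to these genes. Of the 27 probe sets 16 read lower on the array numbered 2 in both groups and 6 read higher in both, and the median log2 difference, number 2 minus number 1, was -0.32 with LIF and -0.34 without LIF. Lifr and Stat3 were among the exceptions in their brightest probe sets, with log2 differences between numbers of 0.19 and 0.29 with LIF against 0.79 and 0.65 without it. Within both numbers 18 of the 27 probe sets had a log2 change of the same sign.

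Changes of pairs of genes were set against each other as log2 ratios on the same array, which a scaling of the whole array cannot alter. The log2 ratio of Lifr to Il6st was 1.47 and 2.05 with LIF, against -0.26 and 0.60 without LIF, a difference of -1.59 with no overlap. Stat3 over Stat5a was 1.84 and 2.39 with LIF, against 0.41 and 1.32 without LIF, a difference of -1.25. Stat3 over Stat5b gave -1.15, and neither ratio overlapped between the groups. Stat3 over Pias3 gave -2.57, from 1.80 and 3.15 with LIF to -0.70 and 0.51 without LIF, with both arrays without LIF below both with LIF. Lifr over Osmr gave -2.48, with Osmr near the filter. The ratios among the JAK kinases, and that of Stat5a to Stat5b, overlapped between the groups, with differences of -0.49 for Jak1 over Jak2, -0.07 for Jak1 over Tyk2 and 0.10 for Stat5a over Stat5b. Of the 8 ratios 5 did not overlap, and each of these had a two-sided exact permutation p of 0.33, the smallest that 2 arrays against 2 can give (0.53 after Benjamini-Hochberg adjustment over the 8).

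**Figure D4:**
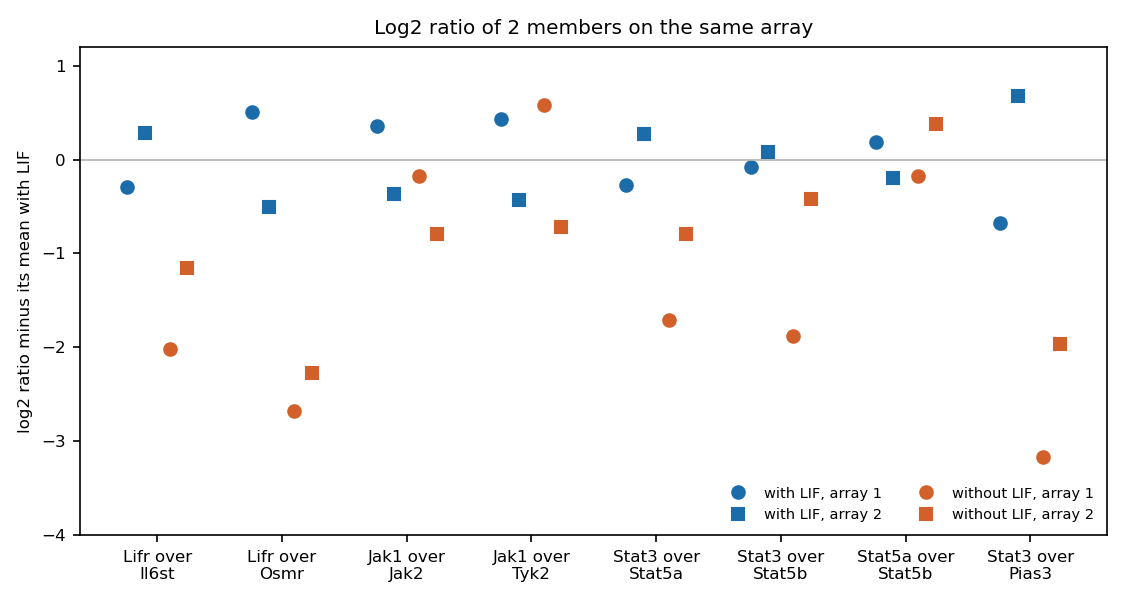
Log2 ratio of the brightest probe sets of 2 genes on the same array, for 8 pairs, minus its mean over the 2 arrays with LIF; colours and symbols are by group and array number. The points without LIF lie below those with LIF for Lifr over Il6st and over Osmr and for Stat3 over Stat5a, Stat5b and Pias3, and they overlap for the other 3 pairs.

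Several of the genes are neighbours on their chromosome by the gene order in RefSeq. Stat5b, Stat5a and Stat3 follow each other on chromosome 11, with Cavin1, which encodes a coat protein of caveolae, beyond Stat3, and Osmr and Lifr are adjacent protein-coding genes on chromosome 15. The log2 change along the first group was -0.38 for Stat5b, -0.27 for Stat5a, -1.53 for Stat3 and -0.74 for Cavin1 (adjusted p = 0.48 in limma). Rictor, a subunit of the mTORC2 complex and the neighbour of Osmr, had a log2 change of 0.26. Ak4, a mitochondrial adenylate kinase and the neighbour of Jak1, read lower without LIF with a log2 change of -1.81 (SE 0.32, adjusted p = 0.089 in limma), while Jak1 differed little. The probe set of Ak4 has an identifier ending in _s_at, so it can match more than 1 gene. The other tested neighbours, Rcl1, Insl6, Raver1, Cdc37, Ghdc, Ankrd35 and Nudt17, had log2 changes from -0.19 to 0.49. All neighbours were examined after the values of the 10 genes had been seen.

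The rest of the pathway was examined through lists of 85 other genes, of which 65 were tested, and 1 of the 65 passed in limma, beside 0.145% of all tested genes. That gene was Socs3, with a fall of 17.8-fold (log2 change -4.16, SE 0.24, adjusted p = 0.0046), and 0 rose. With the brightest probe set of plain type its log2 change was -3.74 (adjusted p = 0.057). The other values in these lists did not pass. Of the 11 SOCS and PIAS inhibitors Socs1 read 30.7 and 44.6 with LIF against 132.4 and 139.3 without it, a log2 change of 1.88 (SE 0.47, adjusted p = 0.20 in limma), so the 2 inhibitors with the largest differences, Socs3 and Socs1, lay on opposite sides. Pias2 and Socs5 had log2 changes of -0.34 and 0.51. Of the 4 tested JAK and STAT genes outside the 10, 3 did not overlap between the groups and were lower without LIF, beside 15.2% of all tested genes, while Stat4 had a log2 change of 0.46 with overlapping groups. Jak3, the kinase of receptors with the common gamma chain, gave -1.36 on the log2 scale (SE 0.52, adjusted p = 0.40 in limma), Stat6, the interleukin-4 factor, -0.47, and Stat2 of the interferon pathway -0.35. Jak3 gave -0.71 when array 1 with LIF was omitted and -2.02 when array 2 of that group was omitted. The median of that list was -0.41 beside 0.09 over all tested genes.

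The tested ligands and other receptors did not pass in limma either. Lif itself read 124.7 and 71.8 with LIF against 118.9 and 95.8 without it (log2 change 0.17), and these groups overlapped. Of the 4 tested ligands Osm, oncostatin M, had a log2 change of -0.56 and Ctf1, cardiotrophin 1, one of 0.37, and in both the groups did not overlap. Of the 11 other tested receptors Ghr, the growth hormone receptor, read 72.4 and 125.3 with LIF against 277 and 217.4 without it (log2 change 1.37, adjusted p = 0.26 in limma). Lepr, the leptin receptor, had a log2 change of -1.32 from signals between 16.8 and 74.6, and Ifngr1, an interferon gamma receptor subunit, one of 0.53.

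The remaining lists cover the branches that leave the receptor beside Stat3, the phosphatases and the partners of STAT proteins. Yes1 read 2223 and 2892.6 with LIF against 1096.7 and 879.2 without it, a log2 change of -1.37 (2.58-fold lower; SE 0.22; adjusted p = 0.0797 in limma). Its log2 change was -1.53 and -1.21 when array 1 or array 2 without LIF was left out. It was -1.56 and -1.18 when array 1 or array 2 with LIF was left out. Fyn of the same family had a log2 change of 0.70 with no overlap. The 9 tested genes of the RAS-MAPK branch had a median of 0.12, with Braf at 0.58, Map2k1 at -0.53 and the adaptor Grb2 at -0.38. The 7 tested PI3K-AKT genes had a median of 0.09, with Pik3r1 at 0.49 and Gsk3b at 0.20, the latter -0.09 with a common median per array. Among the 5 phosphatases Dusp22 had a log2 change of 0.87, and the median was -0.04. Among the 11 partners of STAT proteins Nmi, a STAT-binding protein, gave 0.94 on the log2 scale (SE 0.28, adjusted p = 0.28 in limma), Hdac1 gave -0.21 and Ndufa13 gave 0.19 (-0.11 with a common median per array), with a median of 0.10.

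**Figure D5:**
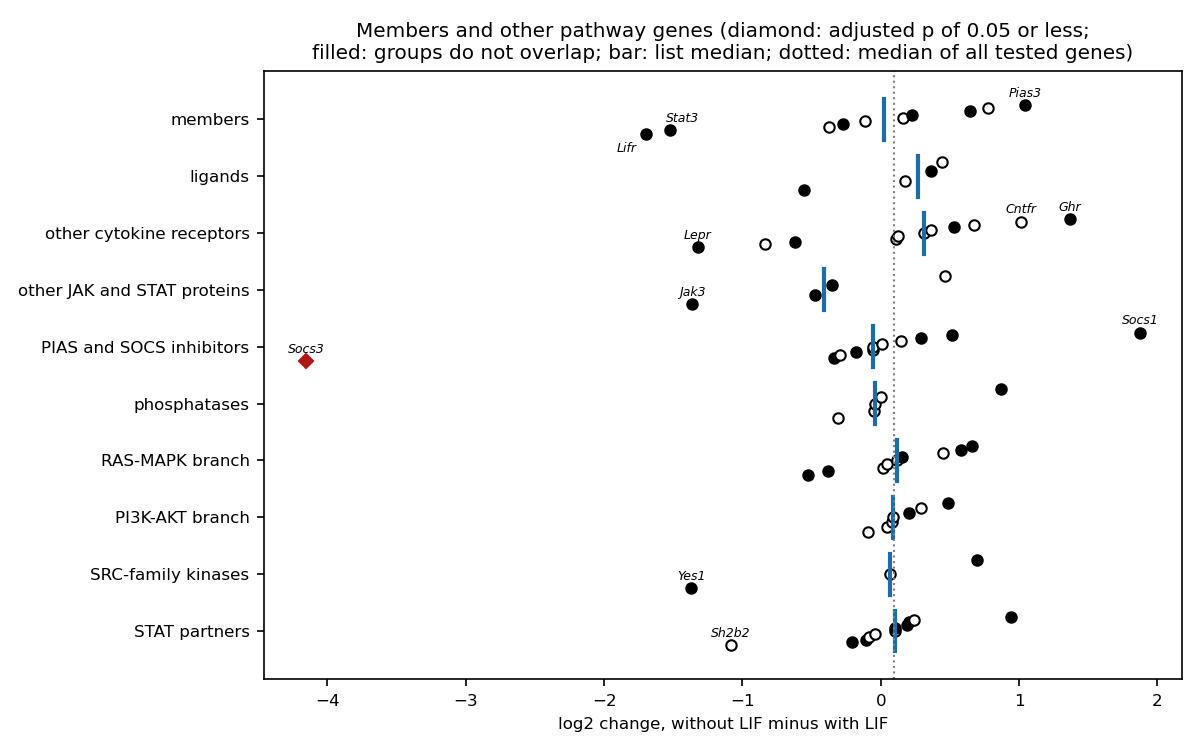
Log2 change, without LIF minus with LIF, of the 10 genes (top) and of the tested genes of 9 pathway lists; filled points are genes whose groups do not overlap, the diamond is a gene with an adjusted p of 0.05 or less, vertical bars are list medians and the dotted line is the median of all tested genes, 0.09. Socs3 at -4.16 is the only diamond, and Lifr, Stat3, Yes1, Jak3 and Lepr lie between -1.3 and -1.7.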

How the data were processed

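Transcripts were measured on 4 arrays, 2 with LIF and 2 without. The deposited values are signal intensities per probe set on a linear scale, made by the authors with MAS5, per the submitters' processing notes; its version is not given in the sources used here. The table held 45101 probe sets, and its single value at or below 0 was set to the lowest positive one so that log2 could be taken. Of these probe sets 64 were controls, 932 had several symbols and 9160 none. Genes were represented by their brightest probe set. The test was limma's (version 3.58.1, R 4.3.3; lmFit, eBayes with trend), two-sided, on a model of group alone with 2 residual degrees of freedom, and with Benjamini-Hochberg adjustment over all tested genes or probe sets. The fit was run on simulated data with 100 log2 changes of size 2 and 100 of size 4. It recovered 69% and 89% of these, and 10 unchanged genes passed. The simulated noise was independent between arrays and its spread depended on signal alone. The run therefore cannot show how the fit handles differences between array numbers. The number of arrays limits the precision.

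The 10 genes, the pathway and marker lists, the tests and the alternatives (closing section) were chosen with earlier results of these data known. Named are all 10 genes and, of each pathway list, genes that passed and up to 3 others with the smallest p whose groups did not overlap; Lif and Stat4 were named after their values were seen. The labels' numbers 1 and 2 are not said to mark a shared culture or day. Entrez identifiers of all 10 genes were found in the RefSeq table. Figures were drawn with matplotlib 3.10.9.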

Additional observations from a re-analysis of the deposited data

How the results depend on the processing

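The number of the 10 genes that passed was 0 in the fit as reported. It was 2, Lifr and Stat3, with a common median per array (0.907% of all tested genes passed) and with a threshold of 0.1 (0.969%). It was 3, with Pias3 added, with the replicate number as a block (replicate block, limma adjusted p = 3.3e-04, 8.1e-04 and 0.028), where 6.75% of all tested genes passed. It was 0 to 2 with each array left out, and 0 under a filter at the 50th percentile or none, a pseudocount, quantile normalization, eBayes without the trend or robust, the mean of probe sets, or plain probe sets. The numbers are not known to pair the arrays, and the block moved the count over all genes from 21 to 975, which was 0 without the trend, 131 with a common median and 7 to 496 with each array left out. A group left with 1 array was assumed to vary like the other. With the replicate block 5 single probe sets passed, in place of 0. The 5 include the dim Stat3 probe set that was tested only because of its signal with LIF, so it adds no support to this count. The share of all probe sets that passed with the block was not counted, and of all tested genes 6.75% passed with it. Of the other pathway genes 6 passed with the block in place of 1 (Ghr, Jak3, Socs1, Socs3, Yes1 and Nmi). That latter count was 0 without the trend and with plain probe sets, 2 with a threshold of 0.1, and 1 to 2 with each array left out. Groups did not overlap for 5 to 7 of the 10 genes over 5 settings, a comparison chosen once the values were known. Under those settings the share of all tested genes without overlap was not counted, so this range has no background beside it. With the values as reported, 42.5% of all tested genes did not overlap.

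Lifr, Stat3 and Stat5a were lower, and Jak2, Pias3 and Osmr higher, in every alternative that tested them, with log2 changes of -2.09 to -1.13 for Lifr and -1.88 to -1.20 for Stat3. Signs were reversed for Jak1 (-0.14), Tyk2 (-0.071), Gsk3b (-0.091) and Ndufa13 (-0.11) with a common median, and for Gsk3b (-0.079) and Stat5a over Stat5b (-0.32) with the mean of probe sets. With single arrays left out Il6st ranged from -0.31 to 0.079, Jak1 from -0.50 to 0.82 and Stat5b from -0.78 to 0.03. Without a change of sign, Osmr ranged from 0.17 to 1.38, Jak2 from 0.29 to 0.996, Stat5a from -0.40 to -0.14, Pias3 from 0.51 to 1.57, Jak3 from -2.02 to -0.71, Lepr from -1.78 to -0.86, Map2k1 from -0.86 to -0.20, Fyn from 0.44 to 0.95, Ifngr1 from 0.31 to 0.76, Grb2 from -0.52 to -0.24, Stat6 from -0.66 to -0.29, Ctf1 from 0.23 to 0.50 and Gsk3b from 0.094 to 0.31. The cause of these differences was not tested. Signal near the filter limits the values of Osmr and of the dimmer Stat3 probe sets.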
